A study of Mus musculus with 4 samples.

Results

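Erythropoietin signalling and survival genes were taken as 5 genes, *Epor*, *Cish*, *Pim1*, *Bcl2l1* and *Foxo3*, and each was followed through a fixed mm9 window assigned to it, whose placement on the gene could not be checked without an mm9 annotation. The windows were chr9:21745001-21790000 for *Epor*, chr9:107180001-107220000 for *Cish*, chr17:29600001-29655000 for *Pim1*, chr2:152590001-152675000 for *Bcl2l1* and chr10:41870001-42030000 for *Foxo3*, 385 kb in all. Every peak of histone H3 lysine 27 acetylation (H3K27ac, a mark of active promoters and enhancers) that overlapped a window was counted as belonging to it. In the 2 G1E replicates these were 23 of 21557 and 23 of 23451 peaks, and in the 2 G1E-ER4+E2 replicates 15 of 29087 and 15 of 26740 peaks. A list pooled over the replicates of each line gave 19 of 24332 peaks for G1E and 12 of 26384 for G1E-ER4+E2.

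ChIP-seq, which uses an antibody to pull down and sequence the chromatin fragments that carry a mark, was run for H3K27ac. G1E cells are an immortalized mouse (strain 129) erythroid progenitor line grown from *Gata1*-knockout embryonic stem cells, and they were left untreated. G1E-ER4 cells are G1E cells transduced with a virus that expresses GATA1-ER, a GATA1 fused to a hormone-responsive receptor domain, and they were given 10 nM estradiol (E2) for 24 h, hence G1E-ER4+E2. Both lines therefore lack endogenous GATA1, each is 1 cell line, and the virus and the hormone were present in the same samples, so that line, construct and estradiol cannot be told apart.

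Erythropoietin keeps erythroid progenitors alive and lets them mature. Its receptor, EPOR, activates the kinase JAK2, which phosphorylates the transcription factor STAT5, and STAT5 switches on targets such as *Cish*, *Pim1* and *Bcl2l1*. The receptor also activates AKT, which holds the forkhead transcription factor FOXO3 out of the nucleus, while GATA1 is a known activator of *Epor* and of *Bcl2l1*.

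Promoter sequences were read from RefSeq (GRCm38.p6), from 250 bases before to 50 bases after each annotated start, and 8 promoters were found for the 5 genes. They are printed for *Cish*, *Epor* and 1 of the 3 *Bcl2l1* starts, since these held the matches to the letters of the STAT5 and GATA motifs. Capitals mark matches on either strand to the STAT5 motif TTCNNNGAA, where N is any base, to the GATA1 motif (AGATAA or TGATAA) and to the KLF1 motif (CCACCC).
Cish, chr9:107296409-107296708, plus strand: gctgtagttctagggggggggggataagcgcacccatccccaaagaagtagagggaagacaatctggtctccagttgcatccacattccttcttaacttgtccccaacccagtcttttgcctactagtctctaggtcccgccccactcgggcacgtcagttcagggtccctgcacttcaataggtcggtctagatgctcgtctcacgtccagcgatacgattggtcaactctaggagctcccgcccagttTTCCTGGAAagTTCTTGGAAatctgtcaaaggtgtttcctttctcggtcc
Epor, chr9:21963527-21963826, minus strand: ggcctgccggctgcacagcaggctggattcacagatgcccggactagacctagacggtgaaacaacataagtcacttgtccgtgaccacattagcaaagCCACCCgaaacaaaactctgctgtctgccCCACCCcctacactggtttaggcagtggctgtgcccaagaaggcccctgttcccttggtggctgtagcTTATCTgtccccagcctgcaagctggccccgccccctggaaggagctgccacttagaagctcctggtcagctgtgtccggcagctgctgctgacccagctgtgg
Bcl2l1, chr2:152828440-152828739, minus strand: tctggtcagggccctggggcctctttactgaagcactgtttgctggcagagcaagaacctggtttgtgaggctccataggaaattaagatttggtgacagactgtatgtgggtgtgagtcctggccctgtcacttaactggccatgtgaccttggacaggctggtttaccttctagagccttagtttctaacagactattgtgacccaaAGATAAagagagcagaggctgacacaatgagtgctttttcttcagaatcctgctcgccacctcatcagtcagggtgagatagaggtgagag

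The *Cish* promoter held 2 STAT5-type matches, TTCCTGGAA at bases 251 to 259 and TTCTTGGAA at bases 262 to 270, counted from 1 at the 5′ end of the sequence, so that both lay just after the start. The letters TTCNNNGAA occurred in 8.30% of 32851 RefSeq promoters of this length, and in none of the other 7 promoters of these genes. The *Epor* promoter held 1 GATA match, TTATCT at bases 197 to 202, and 2 CCACCC matches at bases 100 to 105 and 129 to 134. The *Bcl2l1* promoter shown held 1 GATA match, AGATAA at bases 210 to 215. AGATAA or TGATAA occurred in 18.6% of all promoters and CCACCC in 31.5%. A second *Bcl2l1* promoter held CCACCC on the other strand, and a second *Pim1* promoter held the forkhead letters GTAAACA, which 3.65% of promoters held. The *Foxo3* promoter and the first *Pim1* promoter, with G and C at 75.0% and 81.3% of their bases, held none of these motifs. A STAT6-like spacing with a longer middle, searched for comparison and present in 6.95% of promoters, occurred only in the *Bcl2l1* promoter shown (TTCTTCAGAA, bases 247 to 256). The E-box letters CANNTG were found in 6 of the 8 promoters and in 72.3% of all. No match overlapped another, and a match in letters is not evidence that a factor was bound. These positions are on GRCm38 and are not compared with the mm9 peaks.

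In each list a peak has a position and a fold enrichment, and the enrichments were ranked only within their own list, because what they are relative to was not given. The median enrichment of all peaks was 6.69 and 7.76 in the G1E replicates and 2.98 and 3.59 in the G1E-ER4+E2 replicates. The lists also differed in reach, with 126 and 113 Mb of the genome inside peaks in G1E and 163 and 161 Mb in G1E-ER4+E2, a ratio of means of 1.35. Depth is unknown, since the lists hold no read counts, and the cell type could not be checked against marker transcripts. With 2 replicates in each line the smallest two-sided p that an exact permutation test can give is 0.333, so no difference could pass 0.05. Nothing in the labels says whether replicates came from separate cultures, and the spread between them may be technical.

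Acetylated DNA was abundant around all 5 genes in both lines, and between G1E and G1E-ER4+E2 its length in kb differed in direction from gene to gene, whereas divided by the covered length of each list the mean was lower in G1E-ER4+E2 at all 5. It was greater in both G1E-ER4+E2 replicates at *Pim1*, *Bcl2l1* and *Foxo3*, smaller in both at *Epor*, and overlapping between the lines at *Cish*. Summed over the windows, 209.6 and 195.0 kb lay in peaks in G1E and 249.6 and 245.2 kb in G1E-ER4+E2. Of 11942 tiles of 80 kb with any acetylated DNA, 43.9% were greater in both G1E-ER4+E2 replicates and 30.9% smaller in both, which stands beside 3 and 1 of the 5 genes. Among the 3326 tiles that were at least 20% acetylated on average over the 4 replicates, as these windows are, the shares were 63.1% and 18.0% and the median change was 9.7 kb. The 3 longer windows are thus near the share of richly acetylated tiles. In the plot of acetylated shares, the replicate values are set apart by line at every gene but *Cish*.

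**Figure D1:**
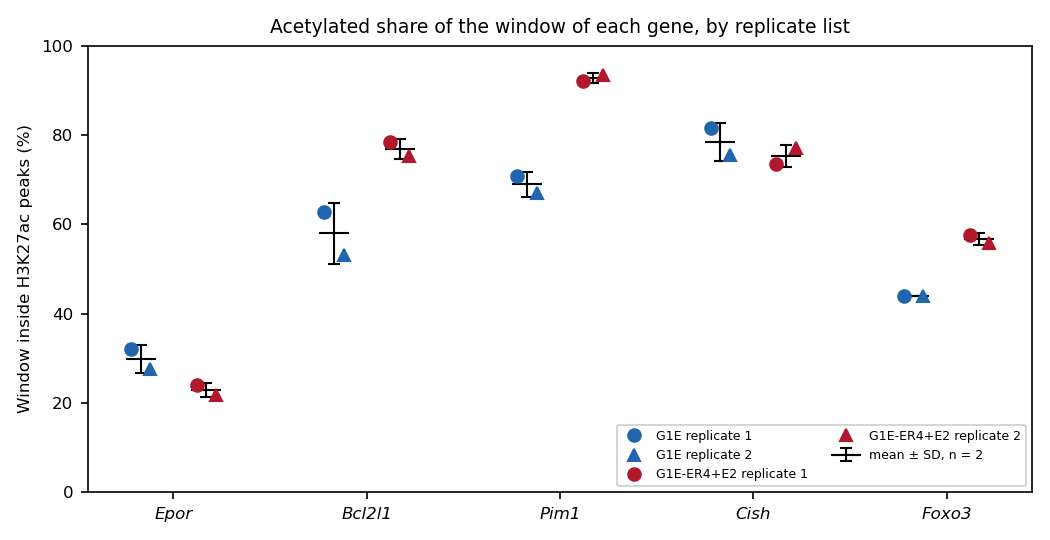
Percent of each gene's window inside H3K27ac peaks (vertical axis, 0 to 100%) for the 4 replicate lists; points are replicates, horizontal bars are means and error bars are SD (n = 2). The G1E-ER4+E2 points lie above the G1E points at Bcl2l1, Pim1 and Foxo3 and below them at Epor, while at Cish 1 lies between the G1E points and 1 below them.

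*Epor*, which encodes the receptor, had a compact acetylated domain in both lines, and less of its window was acetylated in G1E-ER4+E2. The acetylated length of its window was 14.4 and 12.4 kb in G1E replicates 1 and 2 and 10.8 and 9.8 kb in G1E-ER4+E2 replicates 1 and 2. The lines did not overlap, but the gap between them was smaller than the gap between the G1E replicates. The mean went from 13.4 ± 1.41 kb (SD, n = 2) to 10.3 ± 0.707 kb (SD, n = 2), a difference of -3.1 kb (two-sided exact permutation p = 0.333). As a share of the window this was 29.8% ± 3.1 in G1E and 22.9% ± 1.6 in G1E-ER4+E2, the lowest share of the 5 genes in both lines. The lines overlapped when only peaks from the median enrichment of their list upward were kept (12.8 and 10.6 kb against 10.8 and 9.8 kb) and when the window was 20 kb longer on each side (25.4 and 21.8 kb against 22.2 and 19.6 kb).

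Part of the *Epor* difference was a small separate peak. It lay at chr9:21751201-21752800 in G1E replicate 1 and at chr9:21751001-21752800 in G1E replicate 2, and no peak of any G1E-ER4+E2 list touched it. Its enrichment was middling, above 47.2% and 39.6% of the peaks of its list. It was the only one of the 19 pooled G1E peaks in these windows that met the rule for loss, namely found in both G1E replicates and overlapped by no G1E-ER4+E2 peak, against 17.7% of all pooled G1E peaks.

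The main *Epor* domain was present in every list and among the strongest peaks of each. It ran over chr9:21758401-21771200 and chr9:21759001-21769600 in the G1E replicates and over chr9:21759401-21770200 and chr9:21759201-21769000 in the G1E-ER4+E2 replicates, which shared 9.6 kb among all 4. Its width was 12.8 and 10.6 kb in G1E and 10.8 and 9.8 kb in G1E-ER4+E2, values that overlap between the lines, so that the separation of the window lengths rested on the small peak. Its low-coordinate border lay 0.6 kb further in on average in G1E-ER4+E2, no more than the 0.6 kb between the G1E replicates. The domain was stronger than 98.9% and 99.0% of peaks in G1E and than 98.4% and 98.2% in G1E-ER4+E2. The difference in mean rank of -0.682 points exceeded the replicate gaps of 0.126 and 0.180 points, and the lines did not overlap. In the pooled lists the ranks were 98.6% in G1E and 98.5% in G1E-ER4+E2. That difference of -0.133 points was smaller than the 0.180 points between the G1E-ER4+E2 replicates.

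**Figure D2:**
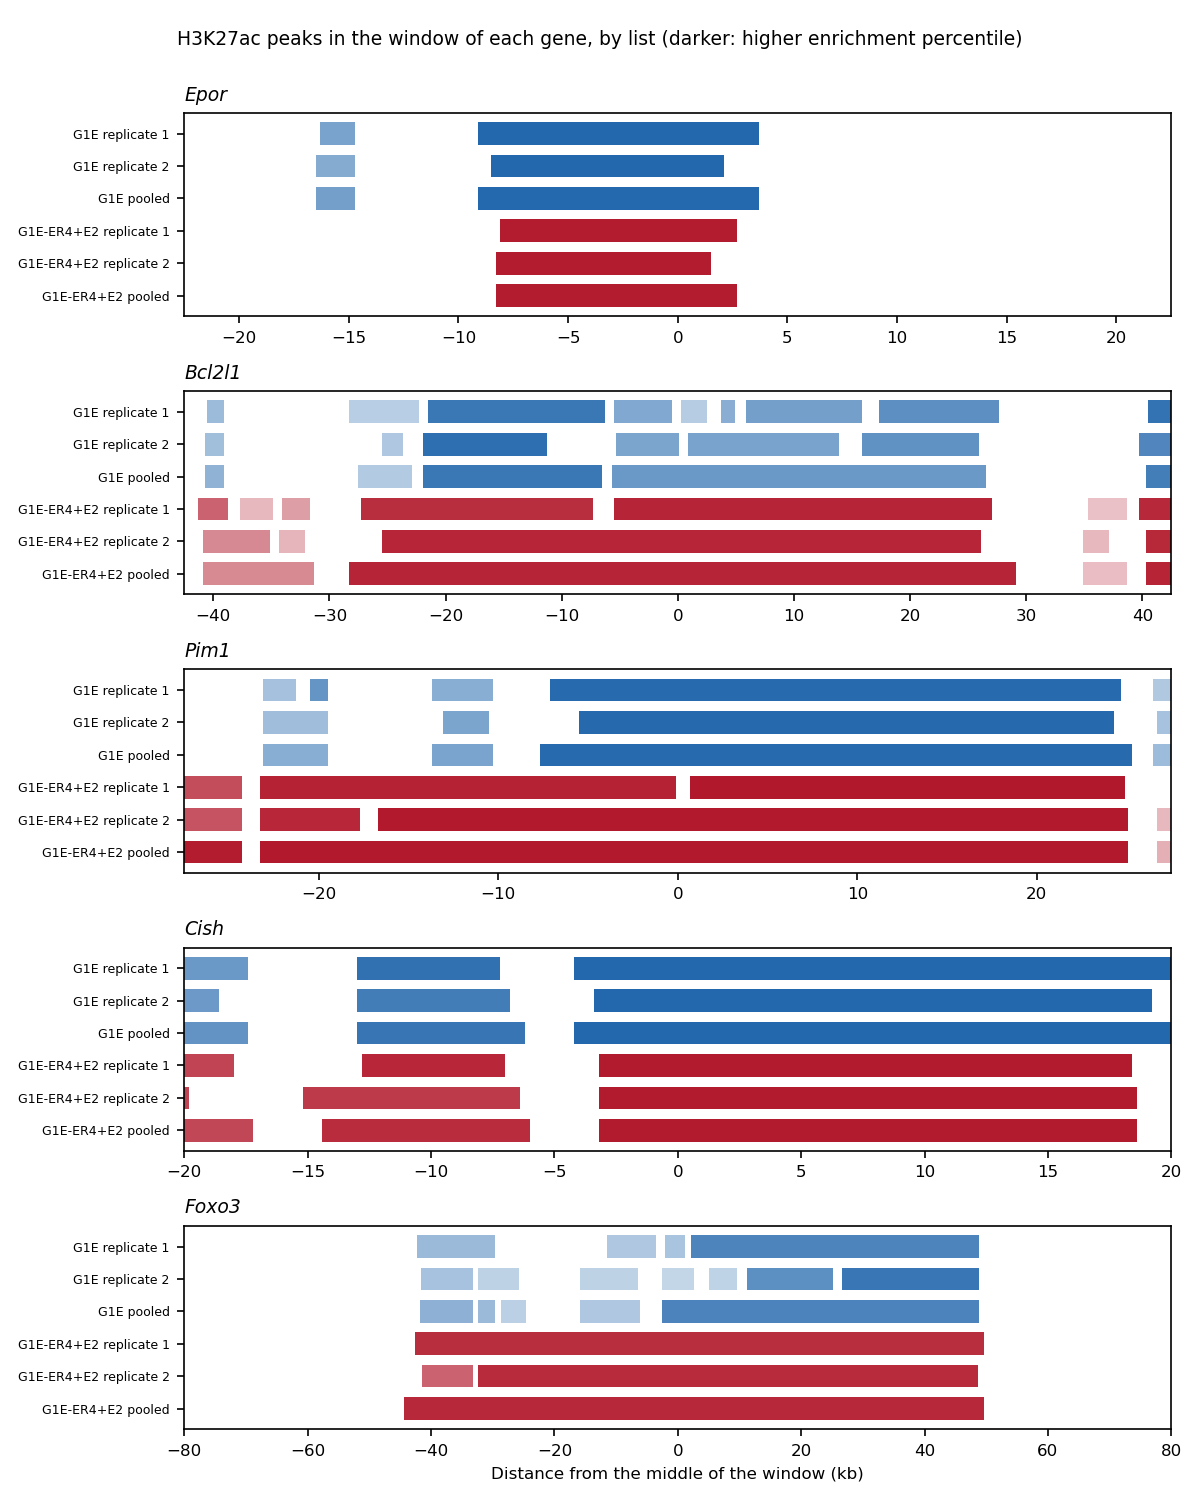
H3K27ac peaks (bars) in each gene's window for the 4 replicate and 2 pooled lists, against distance in kb from the middle of the window, with G1E in blue, G1E-ER4+E2 in red and darker bars for higher enrichment percentiles. Separate G1E bars at Foxo3 and Bcl2l1 give way to longer G1E-ER4+E2 bars, the Pim1 bars of G1E-ER4+E2 reach further to the left, the small Epor bar is missing from the G1E-ER4+E2 lists, and Cish has 3 bars in every list.

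*Cish* encodes a feedback inhibitor that binds the phosphorylated receptor, and the acetylated length of its window overlapped between the lines. Acetylated length was 32.6 and 30.2 kb in G1E and 29.4 and 30.8 kb in G1E-ER4+E2. G1E replicate 2 lay between the G1E-ER4+E2 replicates, so the values are not set apart by line. The means were 31.4 ± 1.70 kb and 30.1 ± 0.990 kb (SD, n = 2 each), a difference of -1.3 kb (two-sided exact permutation p = 0.667) that was smaller than the gap of 2.4 kb between the G1E replicates. Each list had 3 peaks in the window. This overlap depended on the setting, since both G1E-ER4+E2 values were below both G1E values with peaks up to 1000 bp apart joined (32.6 and 31.0 kb against 29.4 and 30.8 kb), with whole peaks (50.4 and 47.8 kb against 46.8 and 47.2 kb), with the window 20 kb longer on each side (69.0 and 64.0 kb against 60.4 and 51.6 kb) and on scaling to the covered length of each list.

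The leading *Cish* peak was slightly narrower in G1E-ER4+E2 and among the strongest of every list. In both G1E-ER4+E2 replicates it began at chr9:107196801, and it ended at 107218400 and 107218600. In G1E it ran over chr9:107195801-107220600 in replicate 1 and chr9:107196601-107219200 in replicate 2. Both of its borders lay further inward in each G1E-ER4+E2 replicate than in either G1E replicate, by 0.6 kb on average at the low-coordinate end. Neither mean shift exceeded the gap between the G1E replicates, 0.8 kb at the low-coordinate end and 1.4 kb at the high-coordinate end. All 4 replicates shared 21.6 kb of this peak. Its enrichment was above 98.7% and 99.2% of peaks in G1E and above 99.2% and 99.1% in G1E-ER4+E2, ranges that overlap. A second peak of 5.8 and 6.2 kb in G1E and 5.8 and 8.8 kb in G1E-ER4+E2 lay on its low-coordinate side, and the third crossed the low end of the window.

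*Pim1*, a serine/threonine kinase gene induced by cytokines through STAT5, had the largest share of its window acetylated in G1E-ER4+E2. The length was 39.0 and 36.8 kb in G1E and 50.6 and 51.4 kb in G1E-ER4+E2. Both G1E-ER4+E2 values stood above both G1E values, and the difference of 13.1 kb exceeded the gaps of 2.2 and 0.8 kb between replicates. The window was 68.9% ± 2.8 acetylated in G1E and 92.7% ± 1.0 in G1E-ER4+E2 (SD, n = 2 each, two-sided exact permutation p = 0.333).

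The added *Pim1* length lay mostly on the low-coordinate side. Of 11.6 kb found in both G1E-ER4+E2 replicates and in no G1E replicate, 3.2 kb lay at the low edge of the window (chr17:29600001-29603200). Another 3.2 kb, chr17:29617201-29620400, lay in the gap between a smaller peak and the leading peak of G1E replicate 1. The edge stretch was the end of a peak that began outside the window, at 29591601 and 29591401 in the G1E-ER4+E2 replicates, whereas the nearest G1E peak on that side ended at 29588400 in both replicates. The remainder was stretches of 1.8 and 3.0 kb between the smaller G1E peaks and 2 single bins of 200 bp.

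The strongest part of *Pim1* was already acetylated in G1E. All 4 replicates shared chr17:29628201-29651800, 23.6 kb long. The leading peak was stronger than 96.4% and 97.2% of peaks in G1E and than 99.8% and 99.6% in G1E-ER4+E2, the highest rank among the 5 genes in that line. The mean rank was 2.88 points higher, which exceeded the gaps between replicates of 0.804 and 0.271 points. In the pooled G1E-ER4+E2 list a single peak of 48.4 kb, chr17:29604201-29652600, overlapped 3 pooled G1E peaks. Neither replicate had it as a single peak, with peaks of 23.2 and 24.2 kb there in replicate 1 and of 5.6 and 41.8 kb in replicate 2. The widest *Pim1* peak was 31.8 and 29.8 kb in G1E and 24.2 and 41.8 kb in G1E-ER4+E2, so its width overlapped between the lines.

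*Bcl2l1* encodes BCL-XL, which protects erythroblasts from apoptosis. Its window held 53.4 and 45.2 kb of acetylated DNA in G1E and 66.6 and 64.0 kb in G1E-ER4+E2. The G1E-ER4+E2 values were both higher, although the G1E replicates were 8.2 kb apart. The mean went from 49.3 ± 5.80 kb to 65.3 ± 1.84 kb (SD, n = 2 each), a difference of 16.0 kb and a ratio of 1.32 (two-sided exact permutation p = 0.333).

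At *Bcl2l1* the replicates of G1E were no more alike than the lines were. Counted in 200 bp bins, 67.1% of the bins acetylated in either G1E replicate were acetylated in both, and between a G1E and a G1E-ER4+E2 replicate the shares were 67.9% to 73.4%. The G1E-ER4+E2 replicates shared 86.6%. Of the window, 7.6 kb met the rule for gain, found in both G1E-ER4+E2 replicates and in no G1E replicate, and it was scattered over 7 stretches of at most 2.6 kb.

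The fragmented G1E peaks of *Bcl2l1* were covered by fewer and wider peaks. G1E replicates had 9 and 7 peaks in the window, the widest of 15.2 and 13.0 kb, and G1E-ER4+E2 replicates had 7 and 5, the widest of 32.6 and 51.6 kb. The numbers of peaks overlap between the lines, and the widest peaks do not. In the pooled G1E-ER4+E2 list a 57.4 kb peak, chr2:152604201-152661600, covered 3 pooled G1E peaks. The widest of these was already 32.2 kb, chr2:152626801-152659000. It was close to the 32.6 kb peak of G1E-ER4+E2 replicate 1, chr2:152627001-152659600, so the difference in widest peaks did not hold against the pooled G1E list. On the high-coordinate side a peak that ended at 152677200 and 152679000 in the G1E replicates ended at 152695800 and 152698400 in the G1E-ER4+E2 replicates, beyond the window. Part of that further stretch lay in a separate peak of G1E replicate 1, chr2:152679801-152683400, and of the pooled G1E list, chr2:152679801-152683000.

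The only pooled G1E-ER4+E2 peak of the 5 genes that met the rule for gain was at *Bcl2l1*. It was chr2:152667401-152671200, 3.8 kb, and its enrichment was above only 4.29% of peaks in that list. That was 1 of 12 peaks in these windows, against 24.0% of all pooled G1E-ER4+E2 peaks. The leading *Bcl2l1* peak stood above 88.7% and 92.0% of peaks in G1E and above 92.8% and 92.1% in G1E-ER4+E2, and it was not the same peak from list to list. The mean difference of 2.11 points was smaller than the 3.31 points between the G1E replicates, and it was 0.455 points without G1E replicate 1 and 3.76 points without G1E replicate 2.

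*Foxo3*, whose product controls antioxidant and maturation genes in erythroblasts, had a wide domain that was longer in G1E-ER4+E2. Its window held 70.2 and 70.4 kb in G1E and 92.2 and 89.2 kb in G1E-ER4+E2. The G1E replicates were nearly equal and both lay well below the others. The mean went from 70.3 ± 0.141 kb to 90.7 ± 2.12 kb (SD, n = 2 each), a difference of 20.4 kb that exceeded the replicate gaps of 0.2 and 3.0 kb (two-sided exact permutation p = 0.333).

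The outer borders of the *Foxo3* domain stayed where they were, and the gaps inside it closed. From the first peak start to the last peak end it spanned 91000 and 90400 bp in G1E and 92200 and 90000 bp in G1E-ER4+E2. The high-coordinate border lay between 41998600 and 41999600 in all 6 lists. Within this span G1E had 4 and 7 peaks and G1E-ER4+E2 had 1 and 2. The pooled G1E-ER4+E2 list had 1 peak of 94.0 kb, chr10:41905601-41999600, which overlapped all 5 pooled G1E peaks.

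One stretch of 10.0 kb, chr10:41924201-41934200, was acetylated in both G1E-ER4+E2 replicates and in neither G1E replicate. It was the longest such stretch in the 5 windows, and a further 1.0 kb was gained at chr10:41946401-41947400. The pooled G1E list had a peak ending at 41925400, so that list already reached into the start of the stretch. All 4 replicates shared 60.2 kb of the window, the longest piece 22.0 kb at the high-coordinate end.

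The *Foxo3* domain ranked higher by width than by enrichment. Its leading peak was wider than at least 98.5% of peaks in every list, but its enrichment was above 73.4% and 85.9% of peaks in G1E and above 87.4% and 89.2% in G1E-ER4+E2. The mean difference of 8.62 points was smaller than the 12.6 points between the G1E replicates. It was 2.33 points without G1E replicate 1 and 14.9 points without G1E replicate 2. In the plot of leading peaks, *Foxo3* and *Bcl2l1* stand below *Epor*, *Cish* and *Pim1* in every list.

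**Figure D3:**
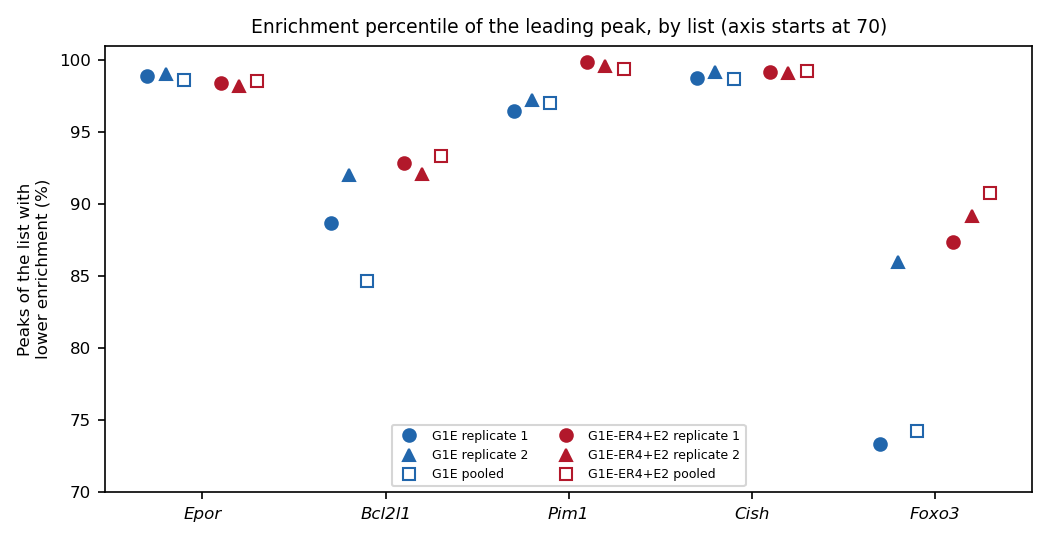
Enrichment percentile of the leading peak of each gene (vertical axis, percent of the peaks of the same list with a lower enrichment, starting at 70) in the 4 replicate lists (filled points) and the 2 pooled lists (open squares). Epor and Cish lie above 98 in every list, Pim1 lies between 96.4 and 99.8, and Foxo3 ranges from 73.4 to 90.8.

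Counted bin by bin, most of the acetylated DNA of these genes was common to the lines. Of 1333 bins of 200 bp that were acetylated in at least 1 replicate, 856 were acetylated in all 4, or 64.2%, against 28.5% of 1166584 bins over the genome. Gained bins numbered 151, or 11.3%, against 23.0% of all bins, and lost bins 13, or 0.975%, against 10.2%. Gained bins were at *Pim1* (58), *Foxo3* (55) and *Bcl2l1* (38), and lost bins at *Epor* (9) and *Cish* (4). Neighbouring bins share a peak and are not independent, and these windows are more densely acetylated than most of the genome, so the shares are a description. The gained count was 248 without G1E replicate 1 and 230 without G1E replicate 2, and the lost count was 41 without G1E replicate 2 and 24 without either G1E-ER4+E2 replicate.

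**Figure D4:**
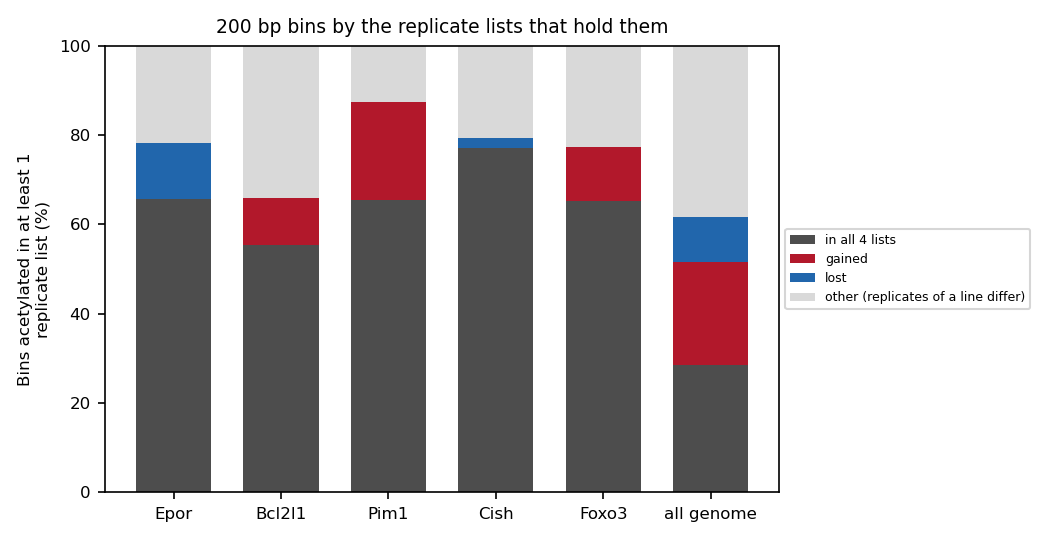
Share of 200 bp bins acetylated in at least 1 replicate (vertical axis, percent) that lie in all 4 replicate lists (dark grey), in both G1E-ER4+E2 and no G1E replicate (gained, red), in both G1E and no G1E-ER4+E2 replicate (lost, blue) or in any other combination (light grey), for each gene and the whole genome. Bins in all 4 lists make up 55.3% at Bcl2l1 and 77.0% at Cish, against 28.5% over the genome.

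At 3 of the genes, wide pooled G1E-ER4+E2 peaks overlapped several G1E peaks. Of the 12 pooled G1E-ER4+E2 peaks in the windows, 5 overlapped at least 2 pooled G1E peaks, against 8.30% of that list, and 0 of the 19 pooled G1E peaks overlapped at least 2 pooled G1E-ER4+E2 peaks, against 5.96%. These 5 peaks lay at *Foxo3*, at *Bcl2l1* (2) and at *Pim1* (2), and all were at least 20 kb wide. Of the *Bcl2l1* pair, 1 of 25.6 kb lay mostly outside its window, as did 1 of the *Pim1* pair, of 49.2 kb. Among the 1873 pooled G1E-ER4+E2 peaks of that width, a class set after the data were seen, 61.9% overlapped at least 2 G1E peaks, beside 5 of the 7 in these windows.

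The direction at 3 genes depended on how length was scaled. Divided by the covered length of its own list, the *Bcl2l1* window held 422.9 and 399.5 bp per Mb of peaks in G1E and 408.8 and 398.4 in G1E-ER4+E2. The *Pim1* values were 308.9 and 325.2 in G1E and 310.6 and 319.9 in G1E-ER4+E2, and those of *Foxo3* 556.0 and 622.2 in G1E and 565.9 and 555.2 in G1E-ER4+E2. On this scale these genes overlapped between the lines and their mean differences turned negative, so their added length was no more than in proportion to that of the lists. *Epor*, at 114.0 and 109.6 in G1E and 66.3 and 61.0 in G1E-ER4+E2, had a ratio of 0.569. *Cish*, at 258.2 and 266.9 in G1E and 180.5 and 191.7 in G1E-ER4+E2, had a ratio of 0.709. Both stood lower in each G1E-ER4+E2 replicate than in either G1E replicate. When instead the most enriched peaks were kept until every list covered the same length, the differences at *Bcl2l1*, *Pim1* and *Foxo3* were 10.7, 12.7 and 20.4 kb.

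The lists do not name genes, and acetylated DNA in a window may belong to a neighbour. In GRCm38 the genes on either side are *Swsap1* and *Rgl3* for *Epor*, *Mapkapk3* and *Hemk1* for *Cish*, *Fgd2* and *Tmem217* for *Pim1*, *Cox4i2* and *Tpx2* for *Bcl2l1*, and *Armc2* and *Afg1l* for *Foxo3*. Which peaks cover the promoters or exons of the 5 genes was not determined, since no mm9 annotation was used here.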

How the data were processed

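H3K27ac ChIP-seq (antibody Abcam Ab4729) of 2 G1E and 2 G1E-ER4+E2 replicates was analysed from 6 broad peak lists, 1 for each replicate and 1 for each line pooled. The submitters' processing notes name bcl2fastq 1.8.4, Bowtie 1.0.0, SICER 1.1 and mm9, with no role or order. Control, filters and pooling method are not given in the sources used here. The authors deposited for each peak a fold enrichment, which is a ratio, and a p-value and q-value as the peak caller gave them, and q was below 0.01 throughout. Depth is unknown, so no interval was computed.

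Members, windows, lists and rules were chosen with earlier results of these data known. Acetylated length is the part of a window inside peaks. The leading peak has the highest enrichment in the window. Gained and lost bins (200 bp) and pooled peaks (overlap of at least 1 bp) follow the rules in the text, and a gained or lost pooled peak had also to be absent from the pooled list of the other line. Samples were grouped by the labels, and replicates were compared by two-sided exact permutation tests. Pooled lists entered no test. Replicate numbers pair no samples. The genes named were the 5 members and their neighbours.

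The interval code was tested on simulated peaks. Alternatives were pooled lists, equal covered length, an enrichment or q-value filter, scaling by list, whole or joined peaks, longer windows, peaks of at least 2000 bp, single replicates left out and a replicate block. A wider list of the pathway's genes needs mm9 gene positions and was not analysed here. Computations ran in Python 3.11.15 with pandas 2.3.3 and NumPy 2.4.6, tests in SciPy 1.17.1, and plots in Matplotlib 3.10.9.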

Additional observations from a re-analysis of the deposited data

How the results depend on the processing

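Of 111 alternatives, 96 gave the same direction or a similar count, 11 moved a count and 4 turned a direction. With lengths divided by the covered length of the list, the changes became -7.61 bp per Mb at *Bcl2l1*, -1.79 at *Pim1* and -28.5 at *Foxo3*, since the G1E-ER4+E2 lists cover 1.35 times as much. The change in rank of the leading *Cish* peak became -0.0427 points without G1E replicate 1 and ranged up to 0.375 points with other single replicates left out. Leaving out single replicates, the change in length ranged from -4.1 to -2.1 kb at *Epor*, 11.9 to 20.1 kb at *Bcl2l1*, 12.0 to 14.2 kb at *Pim1*, -2.5 to -0.1 kb at *Cish* and 18.9 to 21.9 kb at *Foxo3*. Over the other settings in kb it ranged from -3.6 to -1.4 at *Epor*, 10.7 to 35.0 at *Bcl2l1*, 11.4 to 22.5 at *Pim1*, -10.5 to -0.6 at *Cish* and 17.6 to 49.3 at *Foxo3*. Gained bins numbered 377 with peaks from the median enrichment upward, 263 with windows 20 kb longer on each side, 241 in the pooled lists and 175 to 248 with single replicates left out. Lost bins numbered 5, 43, 32 and 14 to 41 under the same settings. The cause of these shifts was not tested. Replicate numbers are shared by the lines as numbers only, and with the replicate block the changes were -3.1, 16.0, 13.1, -1.3 and 20.4 kb at *Epor*, *Bcl2l1*, *Pim1*, *Cish* and *Foxo3*, equal to those without it by construction. Restricting the pooled peaks that overlap several G1E peaks to those at least 20 kb wide, chosen after seeing the data, left all 5.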

Other observations

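The 20 kb beyond each end of the windows were also measured. On the high-coordinate side of *Bcl2l1*, 5.8 and 4.0 kb were acetylated in the G1E replicates and all 20 kb in both G1E-ER4+E2 replicates. On the low-coordinate side of *Pim1* the lengths were 8.4 kb in both G1E replicates and 19.0 and 18.2 kb in G1E-ER4+E2. On the high-coordinate side of *Cish* they were 19.2 and 16.2 kb in G1E and 13.6 and 4.4 kb in G1E-ER4+E2, and on its low-coordinate side 17.2 and 17.6 kb in G1E and 17.4 and 16.4 kb in G1E-ER4+E2. The sides of *Epor* went opposite ways, with 3.0 and 2.8 kb in G1E and 2.0 and 1.6 kb in G1E-ER4+E2 on the high-coordinate side and 8.0 and 6.6 kb in G1E and 9.4 and 8.2 kb in G1E-ER4+E2 on the low-coordinate side. On the other sides of *Bcl2l1* and *Pim1* no replicate had more than 1.4 kb. No list had a peak within 20 kb of either end of the *Foxo3* window.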
